A study of Mus musculus with 11 samples.

Results

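The Hox genes of the mouse are arranged in 4 clusters, HoxA, HoxB, HoxC and HoxD, and every row of the expression table named as a Hox gene of a cluster with a paralog number was taken. This gave 36 genes out of 29291 gene loci, 11 of HoxA on chromosome 6, 9 of HoxB on chromosome 11, 7 of HoxC on chromosome 15 and 9 of HoxD on chromosome 2. The clusters hold 39 Hox genes in the mouse, and Hoxb1, Hoxc12 and Hoxc13 were not analysed here. RNA sequencing of whole prostate tissue, benign or cancerous according to the genotype, from C57BL/6 mice at 15 months of age gave 11 libraries, which the labels number as replicates without naming the mouse, so p-values here measure the spread between these libraries. The 4 genotypes were WT (3 libraries), Pb-ERG (3), Trp53pcR172H/- (2) and the combination Pb-ERG;Trp53pcR172H/- (3), called the double mutants from here on. WT mice were littermates. Pb-ERG mice carried an ERG transgene of the TMPRSS2-ERG fusion type under the probasin promoter, which is active in prostate epithelium. In Trp53pcR172H/- mice, a Cre recombinase under the same promoter switched on an R172H mutant Trp53 allele and deleted the other Trp53 allele in prostatic cells. As the study writes the genotypes, Cre belonged to both groups with altered Trp53 and not to WT or Pb-ERG, so an effect of Cre and an effect of the Trp53 alleles cannot be told apart.

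Hox genes encode homeodomain transcription factors, and their order along each chromosome follows the order of the body regions in which they are switched on in the embryo. Genes with the same paralog number in different clusters descend from a common ancestor. The genes with the highest paralog numbers pattern the hind end of the body, including the urogenital sinus from which the prostate buds. HOXB13 is a lineage factor of adult prostate epithelium, and Hoxa10, Hoxa13 and Hoxd13 are needed for normal growth of the male accessory glands.

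Expression is given as FPKM, the number of sequenced fragments per kilobase of exon, scaled to the fragment total of the library, and the totals behind it ran from 14280978 to 51965100 fragments. The Erg gene, which checks the transgene, was at an FPKM of 0.44 to 0.85 in the 5 libraries without the transgene and at 5.81 to 19.6 in the 6 libraries with it. Trp53 levels do not separate mutant from normal transcripts and check nothing. Several libraries stood apart within their group. Of the fragments of Pb-ERG replicates 2 and 3, 60.3% and 86.4% fell in the listed genes, against 93.1% in replicate 1. Small non-coding RNAs took 4.67% to 10.3% of the fragments in the double mutants, in WT replicate 2 (5.55%) and in Trp53pcR172H/- replicate 2 (7.06%), and under 2% in the other libraries. Libraries with at least 4% are called the high class here, which takes in all double mutants and none of the Pb-ERG libraries. Markers of smooth muscle also moved with the groups. Their 8 genes summed to an FPKM of 1272 to 1802 in WT, 1614, 315 and 816 in Pb-ERG replicates 1 to 3, 1405 and 2298 for Trp53pcR172H/- and 84.0 to 454 in the double mutants.

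Hoxb13 was the most abundant Hox transcript in all 11 libraries, and its level was lower in the double mutants. The gene lies on chromosome 11, from 96194316 to 96197447 on the plus strand (GRCm38), at the end of the HoxB cluster. Its FPKM was 150, 132 and 160 in WT replicates 1 to 3, 130, 95.2 and 212 in Pb-ERG, 109 and 139 for Trp53pcR172H/-, and 95.5, 58.8 and 67.6 in the double mutants. The double-mutant libraries all lay under the WT and Trp53pcR172H/- libraries, whereas Pb-ERG spread on both sides of WT and its replicate 2 lay just under double-mutant replicate 1. The group means were 147 ± 13.96 (SD, n = 3), 146 ± 60.1 (n = 3), 124 ± 21.3 (n = 2) and 74.0 ± 19.1 (n = 3), so the double-mutant mean was 1.99-fold under that of WT. Among all 29291 loci, Hoxb13 ranked from 247 to 428 in the 8 other libraries and 626, 808 and 877 in the double mutants.

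The change of Hoxb13 from WT to the double mutants was -1.01 on the scale of log2(FPKM + 1) (SE 0.32, limma adjusted p = 0.0408). It passed an adjusted p of 0.05 and not one of 0.001, and the exact permutation p was 0.1, the smallest that 3 libraries against 3 allow. The call at 0.05 was kept in 11 of 21 alternative settings. It was lost without any of the WT libraries, either Trp53pcR172H/- library, Pb-ERG replicate 1 or double-mutant replicate 2 or 3, with adjusted p-values of 0.0505 to 0.130. Scaling by the median of ratios made the change larger, at -1.27 (adjusted p = 0.00444). Against Pb-ERG the change was -0.92 (adjusted p = 0.101) and against Trp53pcR172H/- it was -0.75 (adjusted p = 0.193), and both passed 0.05 only after rescaling or, against Pb-ERG, also without Pb-ERG replicate 2. Neither single genotype differed detectably from WT, with changes of -0.09 in Pb-ERG (95% interval -0.80 to 0.62) and -0.26 in Trp53pcR172H/- (-1.05 to 0.53).

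Because the samples were pieces of whole tissue, fewer cells of a type and less RNA per cell cannot be told apart for any gene here. Luminal markers were read beside Hoxb13: the 5 genes Krt8, Krt18, Krt19, Epcam and Cdh1 summed to an FPKM of 950 to 1350 in WT and 931 to 1723 in the double mutants. Of these 5 genes, 1 was higher at 0.05 (Cdh1) and 0 were lower. The 4 measured genes of a list of prostate secretion, Pbsn and Tgm4 among them, summed to 28802 to 44128 in WT, 9679 to 24887 in Pb-ERG and 661 to 7946 in the double mutants, and 3 of the 4 were lower at 0.05. Their part in the Hoxb13 change was not tested.

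The 36 Hox genes covered a range from no detected fragment to the high level of Hoxb13, and the high levels lay at the high paralog numbers. Of the 36 genes, 17 stayed under an FPKM of 1 in every library. An FPKM of at least 1 was reached by 10 to 14 Hox genes in each library, and an FPKM of at least 5 by 3 to 5. Summed over each group, the 22 genes of paralog numbers 1 to 8 reached an FPKM of 13.5 in WT and 12.2 in the double mutants (means per library). The 14 genes of numbers 9 to 13 reached 188 in WT and 134 in the double mutants. This lower sum came from Hoxb13. Without it, the other 13 genes together were higher in the double mutants, at 60.02 (44.7 to 70.01), than in WT, at 40.2 (37.6 to 44.4).

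**Figure D1:**
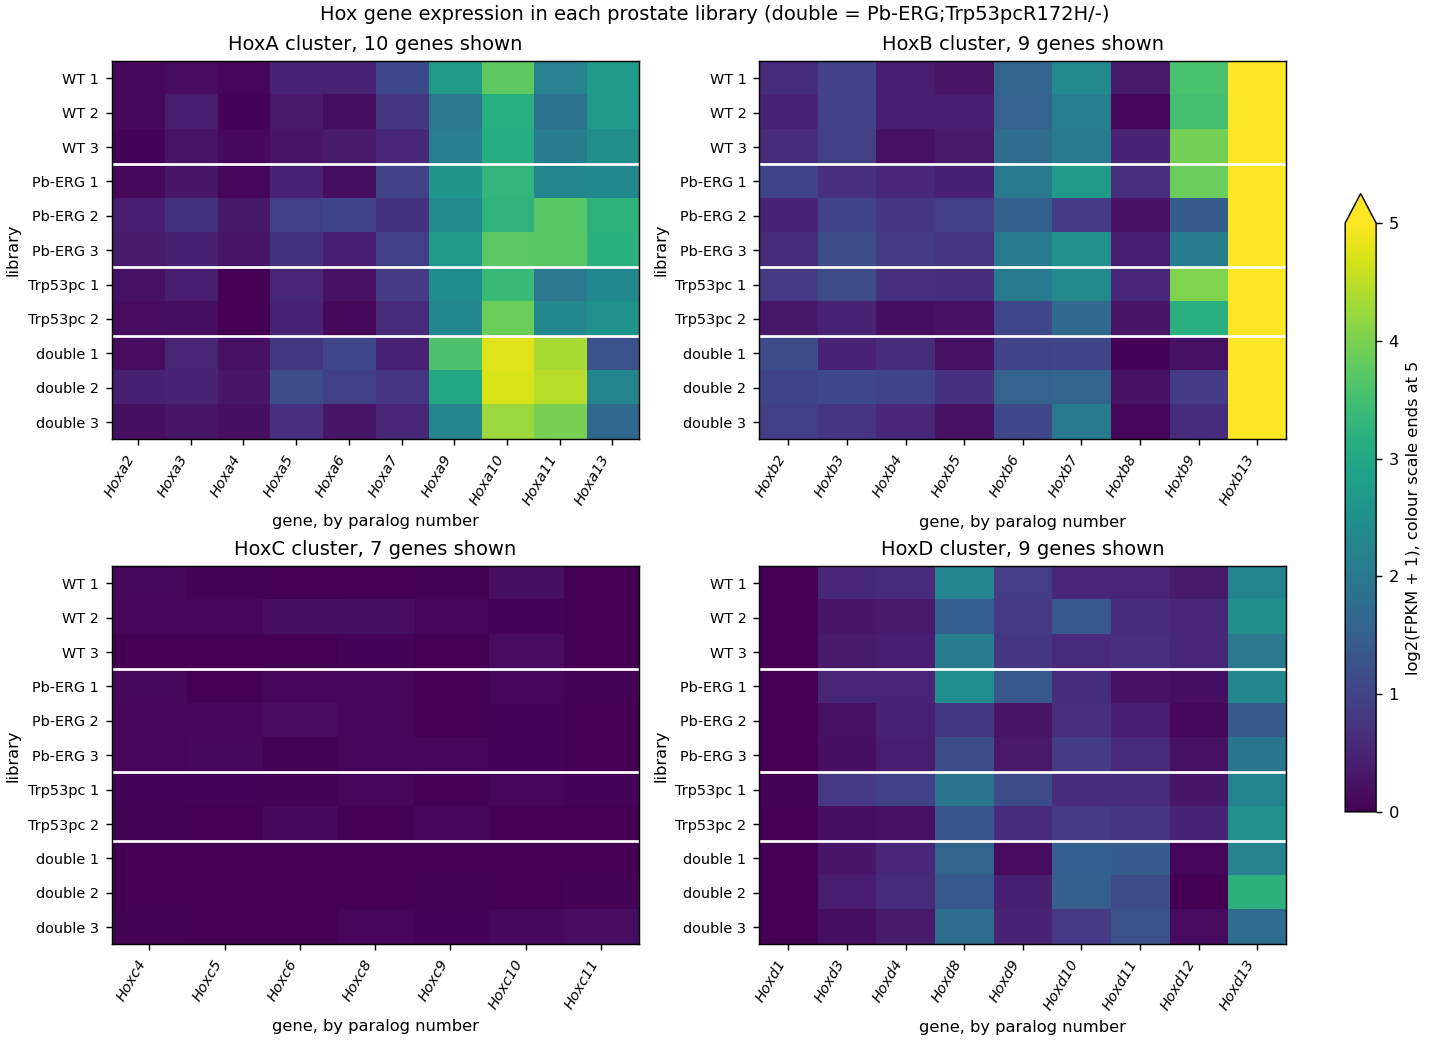
Level of 35 of the 36 Hox genes, as log2(FPKM + 1), in each of the 11 libraries (rows) by cluster and paralog number (columns). Colour runs from 0 to 5 and values above 5, all of them Hoxb13, share the last colour. The HoxC panel stays dark throughout, with no value above an FPKM of 0.155, and in the double-mutant rows Hoxa10 and Hoxa11 are brighter and Hoxb9 is darker than in WT.

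To ask how the altered genotypes changed the cluster genes, each was compared with WT in a limma fit over the 15583 genes that reached an FPKM of 1 in 2 libraries or more. This filter kept 16 of the 36 Hox genes, 5 of HoxA, 6 of HoxB, 5 of HoxD and 0 of HoxC. From WT to the double mutants, 0 of the 16 passed an adjusted p of 0.001, where 3.96% of all tested genes did. At 0.05, 6 of the 16 passed (37.5%), where 25.3% of all tested genes did. Hoxa10, Hoxa11 and Hoxd11 were higher (19.1% of all tested genes were called higher), and Hoxb9, Hoxb13 and Hoxa13 were lower (6.26% were called lower). Hoxd11 reached an FPKM of 1 in the 3 double mutants alone, so it entered the test through the group in which it is high. Of the 15 other genes, 5 were called, 2 higher and 3 lower. Without adjustment, 7 of the 16 had a p under 0.05, and so did 38.3% of all tested genes. The libraries of both groups did not overlap for 9 of the 16 genes (44.8% of all tested genes). The median change of the 16 genes was -0.01, against 0.25 over all tested genes, and that overall shift fell to 0.04 with median-of-ratios size factors and to 0.01 with trimmed-mean scaling.

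**Figure D2:**
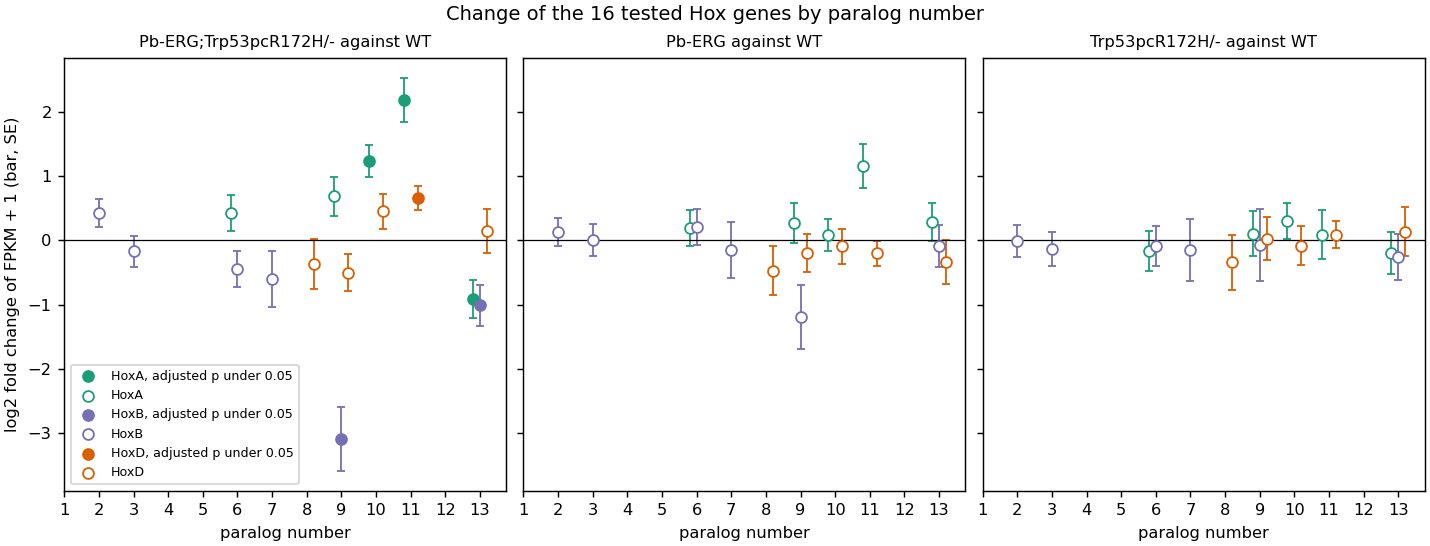
Log2 fold change of FPKM + 1 against WT for the 16 tested Hox genes, by paralog number, with a panel for each altered genotype. Bars are standard errors, colours mark the cluster, and filled points have a limma adjusted p under 0.05. Filled points appear in the double-mutant panel alone, where Hoxa11 stands at 2.19 and Hoxb9 at -3.10.

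The 3 genes that kept their call at 0.05 in all 21 alternative settings of the comparison with WT were Hoxb9, Hoxa10 and Hoxa11. Hoxb9 (chromosome 11, 96271457 to 96276595, plus strand) is the next gene listed in the cluster, and it helps to pattern the rib cage in the embryo. Its FPKM was 10.9, 10.5 and 14.5 in WT, 13.4, 1.77 and 3.34 in Pb-ERG, 15.4 and 8.05 for Trp53pcR172H/-, and 0.17, 0.84 and 0.57 in the double mutants. These last values rest on 8, 59 and 31 fragments, against 439 to 589 in WT. All double-mutant libraries lay under all others, and Pb-ERG was split, with replicate 1 inside the WT range and replicates 2 and 3 between WT and the double mutants. The mean was 22.6-fold lower in the double mutants (0.528 ± 0.342) than in WT (11.9 ± 2.21), a log2 change of -3.10 (SE 0.50, adjusted p = 0.00142). Hoxb9 ranked 2 or 3 among the 36 Hox genes in WT and from 15 to 23 in the double mutants.

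Against Trp53pcR172H/-, Hoxb9 was lower by -3.02 in the double mutants (adjusted p = 0.00514). Against Pb-ERG it was lower by -1.89 (adjusted p = 0.0389), but with the replicate number as a block the adjusted p was 0.0503. This call was kept in only 6 of 20 alternative settings and was lost without any of the WT, Pb-ERG replicate 1 or 3, or double-mutant libraries. In Pb-ERG the change from WT was -1.20 (adjusted p = 0.22) and passed 0.05 only without Pb-ERG replicate 1. The libraries with little Hoxb9 were also those with low smooth muscle sums (315 and 816 in Pb-ERG replicates 2 and 3, at most 454 in the double mutants). The 4 basal cell markers Krt5, Krt14, Krt15 and Trp63 summed to an FPKM of 46.7 to 112 in WT and 2.20 to 12.5 in the double mutants, and 4 of the 4 were lower at 0.05. All 8 smooth muscle markers were lower at 0.05 too. The part of these cells in the Hoxb9 change was not tested.

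No other HoxB gene of the 6 tested was called. Hoxb7 had an FPKM of 4.08, 3.43 and 3.19 in WT, 5.44, 0.85 and 4.74 in Pb-ERG, 4.16 and 2.28 for Trp53pcR172H/-, and 1.07, 2.11 and 3.17 in the double mutants. All double-mutant values lay under those of WT, replicate 3 by a small margin, but the change of -0.60 did not pass the test (adjusted p = 0.332). Hoxb2, at 0.514 ± 0.0881 in WT and 1.05 ± 0.174 in the double mutants, also did not overlap and did not pass (0.43, adjusted p = 0.169). The changes of Hoxb3 and Hoxb6 were -0.17 and -0.44 with overlapping libraries. Hoxb4, Hoxb5 and Hoxb8 were below the filter. Without Hoxb13, the HoxB genes summed to 19.9 ± 2.31 in WT, 15.9 ± 8.67 in Pb-ERG, 19.6 ± 9.84 for Trp53pcR172H/- and 6.92 ± 2.13 in the double mutants.

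The summed level of the HoxA genes was higher in each double-mutant library than in any other, with the largest increases in the adjacent genes Hoxa10 and Hoxa11. The 11 genes summed to an FPKM of 23.5 ± 5.42 in WT, 33.7 ± 8.78 in Pb-ERG, 25.4 ± 3.55 for Trp53pcR172H/- and 54.4 ± 11.8 in the double mutants. The margin over Pb-ERG was very small, with 40.7 in double-mutant replicate 3 and 40.5 in Pb-ERG replicate 3. The 3 genes described next lie side by side on the minus strand of chromosome 6: Hoxa10 from 52231197 to 52240854, Hoxa11 from 52242106 to 52245810 and Hoxa13 from 52257694 to 52260880. Their upstream sequences are shown because these neighbours moved in opposite directions. Each is the 250 bases before the annotated start that the gene locus uses, from RefSeq on GRCm38.p6, 5′ to 3′ along the minus strand, at chr6:52240855-52241104 for Hoxa10, chr6:52245811-52246060 for Hoxa11 and chr6:52260881-52261130 for Hoxa13. Capitals mark the core letters of ETS factors such as ERG, AGGAA or CGGAA on either strand (TTCCT or TTCCG when read along the printed strand).

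Hoxa10: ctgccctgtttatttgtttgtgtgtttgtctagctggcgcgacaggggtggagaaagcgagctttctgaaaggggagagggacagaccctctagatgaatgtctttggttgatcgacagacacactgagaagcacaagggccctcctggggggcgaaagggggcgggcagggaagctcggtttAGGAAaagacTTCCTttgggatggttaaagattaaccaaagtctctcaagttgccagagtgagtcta

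Hoxa11: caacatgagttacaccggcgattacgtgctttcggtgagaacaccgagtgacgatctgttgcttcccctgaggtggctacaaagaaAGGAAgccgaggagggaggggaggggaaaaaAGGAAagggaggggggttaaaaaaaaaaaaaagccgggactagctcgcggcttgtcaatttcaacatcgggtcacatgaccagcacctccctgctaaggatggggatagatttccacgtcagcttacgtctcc

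Hoxa13: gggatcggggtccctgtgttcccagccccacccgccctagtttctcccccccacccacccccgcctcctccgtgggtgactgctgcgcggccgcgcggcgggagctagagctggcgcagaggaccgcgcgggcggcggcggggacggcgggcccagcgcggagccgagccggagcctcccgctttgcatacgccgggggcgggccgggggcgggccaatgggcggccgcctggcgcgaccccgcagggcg

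The stretches before Hoxa10 and Hoxa11 each hold 2 core matches and that before Hoxa13 holds 0. Such short letters are common: in windows of 300 bases reaching from 250 bases before to 50 bases after a start, 17 of 23 windows of Hox genes (73.9%) and 78% of 32851 windows of all genes held the core. The longer forms CCGGAAGT or CAGGAAGT were in 0 of the 23 and in 7.07% of all windows. The Hoxa13 stretch has 35 CpG dinucleotides and a GC content of 80.0%, whereas those of Hoxa10 and Hoxa11 have 7 and 13 CpG and a GC content of 51.6% and 52.0%. Hoxa10 has another annotated start, which is not printed. Its window of 300 bases (chr6:52234890-52235189) holds 1 core match and 21 CpG, with a GC content of 57.3%, so the contrast with Hoxa13 holds for the printed start. A match to these letters describes the sequence and not a binding site. RefSeq windows matched 21 of the 36 genes, and none was used for Hoxb9 or Hoxb13.

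Hoxa11, which patterns the kidney, forearm and reproductive ducts, had the largest increase among the 16 tested Hox genes. Its FPKM was 3.67, 2.66 and 3.35 in WT, 3.91, 11.96 and 12.1 in Pb-ERG, 2.95 and 4.07 for Trp53pcR172H/-, and 19.3, 21.1 and 14.8 in the double mutants. The double-mutant libraries lay above all others, Pb-ERG replicates 2 and 3 came next, and Pb-ERG replicate 1 was close to WT. The mean was 5.70-fold higher in the double mutants (18.4 ± 3.23) than in WT (3.23 ± 0.519), a log2 change of 2.19 (SE 0.34, adjusted p = 0.00118). It was 2.10 higher than in Trp53pcR172H/- (adjusted p = 0.00486). Its difference of 1.03 from Pb-ERG did not pass 0.05 (adjusted p = 0.087). The Pb-ERG libraries were all above those of WT, with a change of 1.16 that did not pass either (adjusted p = 0.107, exact permutation p = 0.1). Without Pb-ERG replicate 1, Hoxa11 and Hoxb9 were the 2 Hox genes called at 0.05 in Pb-ERG against WT. Hoxa11 overlaps the antisense gene Hoxa11os, and no strand was kept by the library kit, so their fragments cannot be told apart where they overlap. Hoxa11os had a mean FPKM of 4.52 in WT, 17.2 in Pb-ERG, 4.98 for Trp53pcR172H/- and 12.1 in the double mutants (change from WT 1.22, adjusted p = 0.0807).

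Hoxa10, best known for patterning the uterus and vas deferens, was higher in the double mutants than in each other genotype. Its FPKM was 12.6, 7.80 and 7.60 in WT, 8.82, 8.48 and 12.1 in Pb-ERG, 9.53 and 13.6 for Trp53pcR172H/-, and 25.9, 25.5 and 18.0 in the double mutants. Every double-mutant library lay above every other library, and the 3 other genotypes overlapped. The change was 1.24 from WT (SE 0.25, adjusted p = 0.00544), 1.16 from Pb-ERG (adjusted p = 0.0186) and 0.94 from Trp53pcR172H/- (adjusted p = 0.0481), and the last was kept in only 3 of 20 alternative settings. The call against Pb-ERG was lost without Pb-ERG replicate 1 or 2 and without double-mutant replicate 1 or 2 (adjusted p from 0.0542 to 0.0607). In Pb-ERG the change from WT was 0.08 (95% interval -0.48 to 0.64).

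Hoxa13, needed for the hands and feet and the genital tubercle, moved the other way, and it was chosen for description after its values were seen. Its FPKM was 5.67, 5.54 and 4.51 in WT, 4.06, 8.38 and 8.10 in Pb-ERG, 4.04 and 4.87 for Trp53pcR172H/-, and 1.36, 3.77 and 2.20 in the double mutants. All double-mutant libraries lay under all others. The change was -0.91 from WT (SE 0.29, adjusted p = 0.0431) and -1.20 from Pb-ERG (adjusted p = 0.0303), and the call against WT was kept in 10 of 21 alternative settings. It was lost without any WT library, either Trp53pcR172H/- library, or double-mutant replicate 1 or 3 (adjusted p from 0.055 to 0.133). The call against Pb-ERG was lost without Pb-ERG replicate 2 or 3 and without double-mutant replicate 1 or 3.

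Hoxa9 is the gene on the other side of Hoxa10. Its FPKM was 5.58, 3.01 and 3.38 in WT, 5.06, 4.19 and 5.40 in Pb-ERG, 4.43 and 4.06 for Trp53pcR172H/-, and 11.2, 7.12 and 3.87 in the double mutants. Double-mutant replicate 3 lay inside the WT range, and the change of 0.69 did not pass (adjusted p = 0.127). Of the genes further along the cluster, Hoxa6 alone passed the filter, with a change of 0.43 (adjusted p = 0.283).

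**Figure D3:**
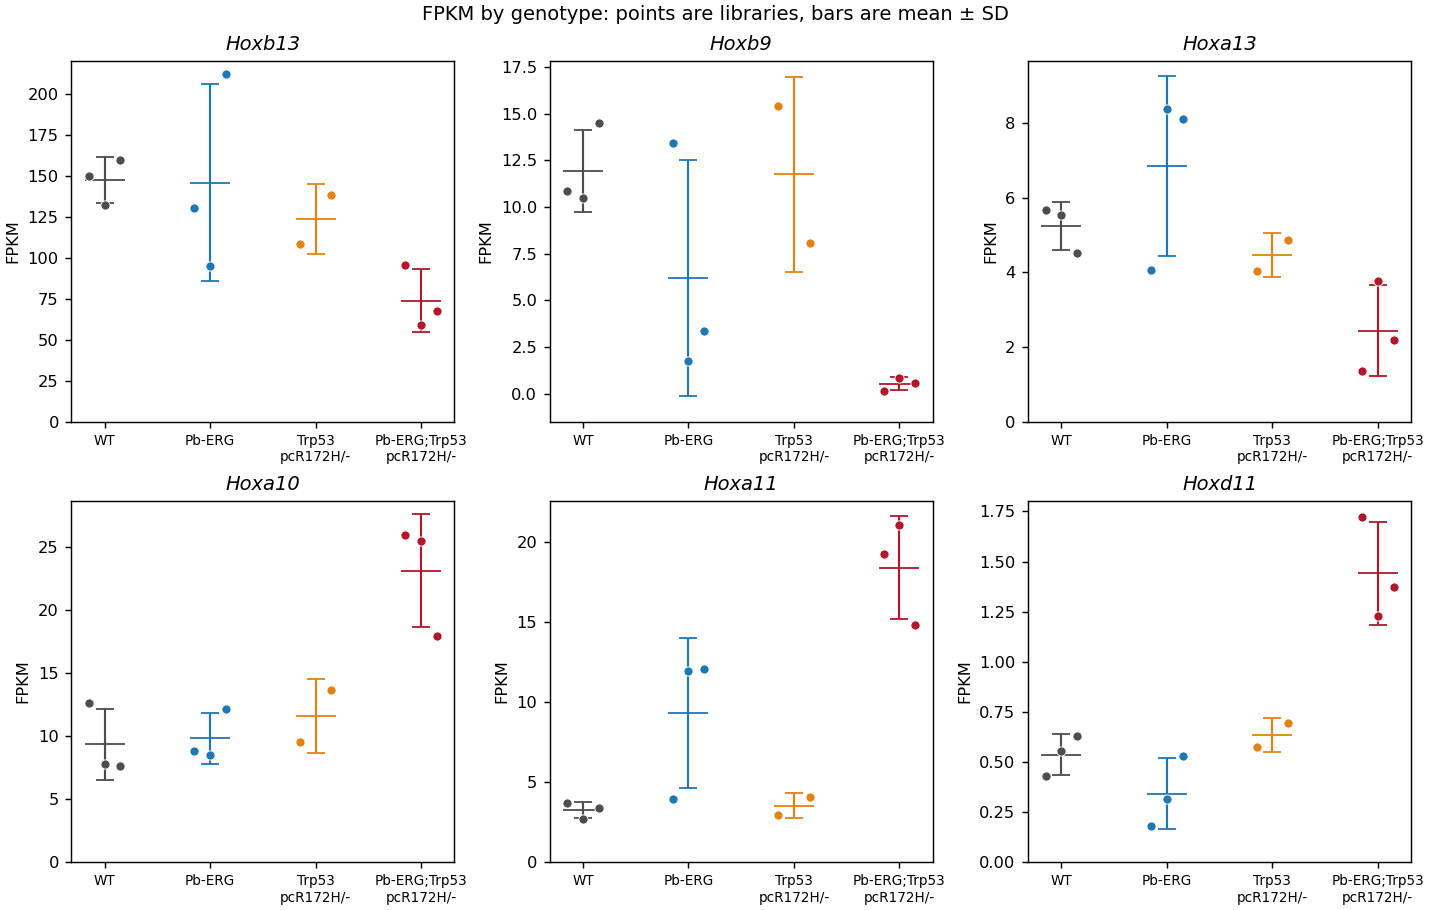
FPKM of 6 Hox genes in each library (points) by genotype, with the mean and SD of each group. The double-mutant points of Hoxa10, Hoxa11 and Hoxd11 lie above those of WT and those of Hoxb13, Hoxb9 and Hoxa13 lie under them. Pb-ERG is split for Hoxb9 and Hoxa11, with replicate 1 near WT.

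The balance between Hox genes of a library is given as ratios and shares. Hoxa11 was called higher and Hoxa13 and Hoxb9 lower, so ratios of Hoxa11 to these genes restate those calls. The ratio of Hoxa11 to Hoxa13, on the FPKM scale, was 0.48 to 0.74 in WT, 0.96 to 1.49 in Pb-ERG, 0.73 to 0.84 for Trp53pcR172H/- and 5.60 to 14.2 in the double mutants. Hoxa11 relative to Hoxb9 was 0.23 to 0.34 in WT and 25.0 to 117 in the double mutants, with 0.29, 6.75 and 3.61 in Pb-ERG replicates 1 to 3. Hoxb13 relative to Hoxa13, both called lower, was 23.9 to 35.5 in WT and 15.6 to 70.4 in the double mutants, with overlap. These ratios are within a library and do not depend on its scaling. Hoxb13 made up 73.3% ± 2.04 of the summed Hox FPKM in WT, 70.5% ± 6.07 in Pb-ERG, 68.9% ± 6.71 for Trp53pcR172H/- and 50.5% ± 8.24 in the double mutants. Hoxa10 took 4.63% ± 1.24 in WT and 15.8% ± 1.71 in the double mutants, and Hoxa11 took 1.60% ± 0.143 and 12.6% ± 1.80.

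**Figure D4:**
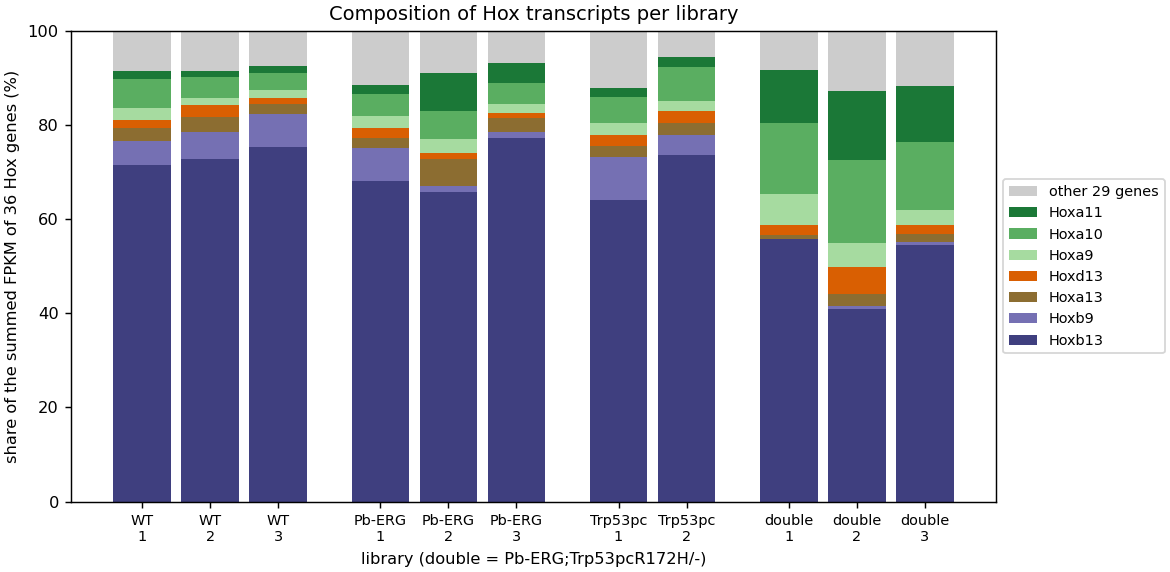
Share of the summed FPKM of the 36 Hox genes taken by 7 of them in each library, in percent, with the other 29 in gray. Hoxb13 is the largest part of every bar, and the green parts (Hoxa9, Hoxa10 and Hoxa11) are taller in the double-mutant bars, where Hoxb9 is nearly invisible.

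By paralog number, the sum over clusters was dominated by number 13 in every genotype (156 in WT and 81.2 in the double mutants, nearly all Hoxb13). Number 9 summed to 16.8 in WT and 8.22 in the double mutants, number 10 to 10.3 and 24.6, and number 11 to 3.76 and 19.9. No number had tested genes called in opposite directions, but genes of a number did not always pass together. For number 11, Hoxa11 and Hoxd11 were both higher at 0.05 (2.19 and 0.67), Hoxd11 having entered the test through the double mutants alone. For number 10, Hoxa10 was higher (1.24) and Hoxd10 changed by 0.45 without passing. For number 13, Hoxa13 and Hoxb13 were lower at 0.05 and Hoxd13 changed by 0.15 (adjusted p = 0.772). For number 9, Hoxb9 was lower, while Hoxa9 and Hoxd9 changed by 0.69 and -0.50 without passing.

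HoxD genes were expressed at low levels with few differences. Hoxd13, which patterns digits and genitalia, had an FPKM of 3.79, 4.63 and 3.01 in WT, 3.95, 1.79 and 2.85 in Pb-ERG, 3.78 and 4.74 for Trp53pcR172H/-, and 3.68, 8.23 and 2.42 in the double mutants. Hoxd8 had 3.75, 1.84 and 3.35 in WT, 4.50, 0.75 and 1.29 in Pb-ERG, 2.82 and 1.45 for Trp53pcR172H/-, and 2.07, 1.61 and 2.41 in the double mutants. For both genes the double mutants overlapped the WT range, and the Hoxd8 change of -0.37 did not pass (adjusted p = 0.515). Hoxd10 had 0.44, 1.56 and 0.52 in WT, 0.57, 0.63 and 0.82 in Pb-ERG, 0.56 and 0.81 for Trp53pcR172H/-, and 1.82, 1.87 and 0.79 in the double mutants, with a change of 0.45 (adjusted p = 0.24).

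Hoxd11 and Hoxd12 were picked out after their values were seen. Hoxd11 had an FPKM of 0.43, 0.55 and 0.63 in WT, 0.18, 0.31 and 0.53 in Pb-ERG, 0.57 and 0.69 for Trp53pcR172H/-, and 1.72, 1.23 and 1.37 in the double mutants. The double-mutant libraries, with 32 to 37 fragments each, lay above all others, which had 5 to 20. The change was 0.67 from WT (SE 0.19, adjusted p = 0.0256) and 0.87 from Pb-ERG (adjusted p = 0.0178). On the linear scale its mean was 2.69-fold that of WT and 4.23-fold that of Pb-ERG. These are values of a gene that entered the test only because it was high in the double mutants, and in the fit without a filter the adjusted p was 0.0172 against WT and 0.015 against Pb-ERG. The call against WT was lost without any WT library and without double-mutant replicate 1 (adjusted p from 0.0629 to 0.0932), and that against Pb-ERG without Pb-ERG replicate 1. Hoxd11 and Hoxd10 overlap a further annotated locus, so their fragments may be shared with it. Hoxd12, below the filter, had 15, 19 and 18 fragments in WT, 9, 11 and 11 in Pb-ERG, 18 and 14 for Trp53pcR172H/-, and 2, 0 and 6 in the double mutants. It was called lower in a limma-voom fit on recovered fragments that kept genes with at least 10 fragments in at least 2 libraries (-3.55, adjusted p = 0.0178), where 22.2% of 18555 genes were called at 0.05. The 9 HoxD genes summed to 10.1 ± 0.708 in WT, 7.48 ± 3.85 in Pb-ERG, 9.94 ± 1.45 for Trp53pcR172H/- and 10.7 ± 3.15 in the double mutants.

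The HoxC cluster was at or near zero in every genotype. Its 7 genes together had 134 fragments over the 11 libraries, no gene had more than 9 in a library, and the highest FPKM was 0.155 (Hoxc6 in WT replicate 2). Hoxc10, the highest on average, had 6, 1 and 3 fragments in WT, 3, 4 and 2 in Pb-ERG, 4 and 0 for Trp53pcR172H/-, and 0, 0 and 3 in the double mutants. Hoxc6 had 0, 4 and 0 in WT, 2, 9 and 1 in Pb-ERG, 1 and 2 for Trp53pcR172H/-, and 0 in each double-mutant library. Hoxc8 had 0, 4 and 1 in WT, 3, 5 and 2 in Pb-ERG, 3 and 0 for Trp53pcR172H/-, and 0, 0 and 2 in the double mutants. Differences between genotypes were not detectable at this depth. Hoxd1 was as low, with 1 fragment in all.

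The single genotypes were compared with WT for the same 16 genes. All comparisons with WT share the same 3 WT libraries. In Pb-ERG, 0 Hox genes passed 0.001 (0% of all tested genes) or 0.05 (1.9%), and 2 had an unadjusted p under 0.05, Hoxa11 and Hoxb9, where 19.4% of all tested genes did. The libraries of Pb-ERG and WT did not overlap for 1 of the 16 genes, Hoxa11, where 29.4% of all tested genes did not overlap. In Trp53pcR172H/-, 0 genes passed at either threshold (0.00642% at 0.05), 0 had an unadjusted p under 0.05 (1.61%), and 0 did not overlap (17.2%). The changes there ran from -0.34 to 0.30, with standard errors up to 0.56 in a group of 2 libraries.

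The double-mutant group was then compared with each single genotype. Against Pb-ERG, 4 of the 16 genes passed 0.05, where 9.11% of all tested genes did, and 0 passed 0.001 (0.475%). Hoxa10 and Hoxd11 were higher (7.16% of all tested genes) and Hoxa13 and Hoxb9 lower (1.95%), and 5 of the 16 did not overlap (24.5%). Without Hoxd11, which passed the filter through the double mutants alone, 3 of 15 were called. With the replicate number as a block, 3 passed 0.05, all of these but Hoxb9. In a fit to these groups alone, and in another with the high or low class as a term, 0 of them passed. Against Trp53pcR172H/-, 3 passed 0.05 (14.8%) and 0 passed 0.001 (1.1%). Hoxa10 and Hoxa11 were higher (11.5%) and Hoxb9 lower (3.27%), 9 did not overlap (42.6%), and without Trp53pcR172H/- replicate 1 the count at 0.05 was 0. The interaction asks whether the transgene changed a gene by a different amount with altered Trp53 than without it. For it, 0 of the 16 passed 0.05 (0.468% of all tested genes), and 4 had an unadjusted p under 0.05, Hoxa10, Hoxa13, Hoxb9 and Hoxd11, where 10.02% of all tested genes did. The interaction of Hoxb9 was -1.82 (limma adjusted p = 0.435).

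The class by small non-coding RNA bears on the comparison with WT, since it separates most libraries as the genotypes do. With the class as a term in the fit, the changes from WT to the double mutants were -2.76 for Hoxb9 (adjusted p = 0.0209), 1.22 for Hoxa10 (0.0407) and 2.20 for Hoxa11 (0.0131), whereas Hoxb13 (-1.02, 0.131), Hoxa13 (-1.02, 0.108) and Hoxd11 (0.62, 0.127) did not pass. Of the WT libraries, replicate 2 alone shares the class of the double mutants, with an FPKM of 10.5 for Hoxb9, 7.80 for Hoxa10 and 2.66 for Hoxa11. A test within the class was not possible with 1 WT library. Leaving out Pb-ERG replicates 2 and 3, a choice made after seeing the data, left the same 6 genes called at 0.05.

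Genes that act with Hox proteins or on Hox clusters were read beside them. HOX proteins bind DNA with the cofactors of the PBX, MEIS and PREP families. Of the 9 such genes, 8 were tested, and 1 was higher at 0.05 in the double mutants, Pknox2, with 2.88 ± 0.708 in WT and 10.4 ± 2.96 in the double mutants (change 1.54, adjusted p = 0.00909). That is 12.5% called, against 25.3% of all tested genes, and the median change of these 8 was 0.52, against 0.25. Pknox2 was at 4.84, 10.7 and 14.4 in Pb-ERG. Polycomb proteins keep Hox clusters silent and trithorax proteins keep them active. Of 28 such genes, all tested, 2 were higher (Ezh2 and Phc2) and 1 lower (Ring1) at 0.05, which is 10.7% against 25.3% of all tested genes, and their median change was 0.24. Ezh2, the catalytic subunit of the Polycomb complex that methylates histone H3, was at 1.25, 1.64 and 1.83 in WT and 8.68, 7.39 and 6.53 in the double mutants (1.73, adjusted p = 0.000463). It was also higher in Pb-ERG (1.38, adjusted p = 0.0147).

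Retinoic acid switches on Hox genes in the embryo through receptors at the clusters. Of 17 genes of retinoic acid synthesis, transport and reception, 14 were tested, and in the double mutants 7 were higher and 1 lower at 0.05 (57.1%), where 25.3% of all tested genes were called, 19.1% higher and 6.26% lower. Their median change was 0.71 against 0.25 over all tested genes. The list was chosen with earlier results of these data known, so these shares are a description only. A link of these genes to the Hox changes was not tested. Passing 0.001 were Aldh1a2, which makes retinoic acid (3.98, adjusted p = 0.000237), Rdh10, which makes its precursor (2.46, 0.000387), Stra6, a retinol transporter (2.31, 0.000128), and Rarb, a receptor (1.75, 0.000421). Aldh1a2 was at 5.96, 2.12 and 4.47 in WT and 100.3, 44.3 and 101 in the double mutants, and Rarb at 0.78, 0.89 and 1.15 and at 4.75, 7.65 and 4.49. In Pb-ERG, 0 of the 14 passed, and Aldh1a2 was at 2.14, 6.01 and 5.13 there. The 1 lower gene was Crabp1, which binds retinoic acid (-3.49, adjusted p = 0.0188). Crabp1 was at 6.45, 16.7 and 15.7 in WT and 0.066, 0.184 and 0.237 in the double mutants. It was as low in Pb-ERG, at 0.099, 0.192 and 0.098, where the change from WT did not pass (-3.53, adjusted p = 0.0789). The Trp53pcR172H/- libraries were split, at 0 and 30.995. Fibroblast markers were higher in the double mutants for 4 of 6 genes, with sums of 250 to 336 in WT and 398 to 1092 in the double mutants. The Pb-ERG sums, at 315 to 505, overlapped both. The 4 genes higher in the double mutants were Col1a1, Col1a2, Col3a1 and Pdgfra. Of these, Col1a1 was also higher in Pb-ERG than in WT (1.77, adjusted p = 0.0264). From WT to the double mutants, Dcn and Lum changed by -0.44 and -0.40 without passing (adjusted p = 0.559 and 0.721), so the markers did not move together. The part of these cells in the change was not tested.

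**Figure D5:**
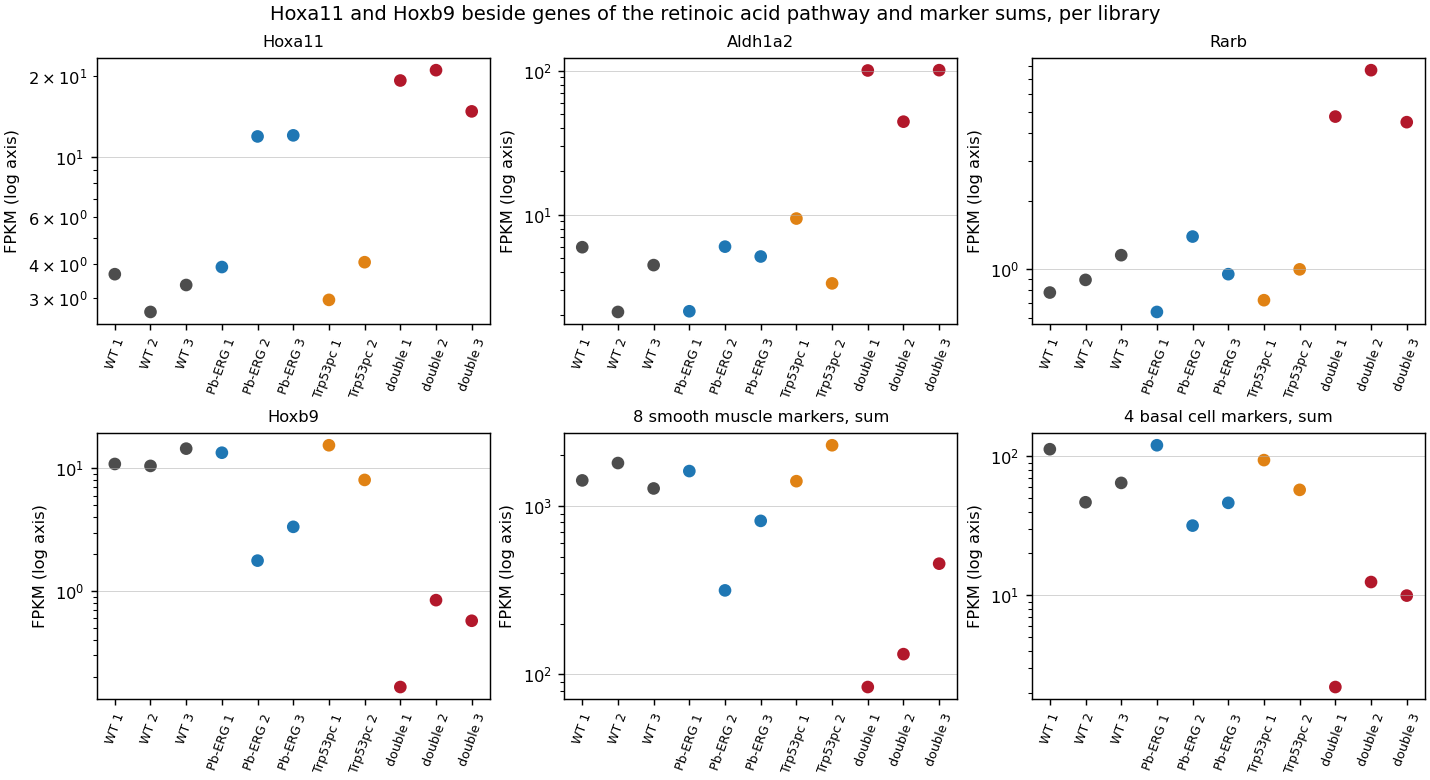
FPKM, on a log axis, of Hoxa11, Hoxb9, Aldh1a2 and Rarb and the summed FPKM of 8 smooth muscle and 4 basal cell markers in each library. Aldh1a2 and Rarb are high in the 3 double-mutant libraries alone, whereas Hoxa11 and Hoxb9 also differ from WT in Pb-ERG replicates 2 and 3, which have the lowest smooth muscle sums outside the double mutants.

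Of a list of 16 other transcription factors, not all of them factors of the prostate, 11 were tested. In the double mutants 5 were lower at 0.05, among them Gata2 (-1.06), Gata3 (-2.65), Tbx3 (-1.79) and Esr2 (-0.91), with 0 higher and 0 past 0.001. That is 45.5% called, with a median change of -0.56, where 6.26% of all tested genes were lower. This list, too, was chosen with earlier results of these data known. Foxa1, a pioneer factor of prostate epithelium, changed by -0.31 (adjusted p = 0.526). Of the RNA genes in the clusters and the genes beside them, 23 were found and 11 tested, with a median change of 0.35, against 0.25 over all tested genes. Of the 11, 27.3% were called at 0.05, near the 25.3% of all tested genes. The flanking genes Skap2, next to HoxA (0.87, adjusted p = 0.0238), and Hnrnpa1, beside HoxC (0.81, 0.042), were higher and Hibadh, on the HoxA side (-0.97, 0.0152), was lower. The HoxA genes lie between Skap2 and Hibadh. Endothelial markers were higher for 5 of 5 genes (sums 11.3 to 17.2 in WT and 30.8 to 54.2 in the double mutants), and leukocyte markers for 3 of the 4 tested (sums 11.1 to 15.4 in WT and 34.0 to 107 in the double mutants). In Pb-ERG the endothelial sums were 17.2 to 18.6. The leukocyte sums there were 25.7 to 60.8 and overlapped those of the double mutants. Of the leukocyte markers, Cd14 was also higher in Pb-ERG than in WT (1.91, adjusted p = 0.0146). Urothelial markers had 0 of 3 genes called. Of the 4 skeletal muscle markers, both genes tested, Acta1 and Ckm, were lower. Myh4 and Tnnt3 were below the filter, with means of 0.01 and 0.18 in WT and 0 and 0.20 in the double mutants. Seminal vesicle transcripts summed to 286 to 12242 in WT and to 28374, 67.7 and 71.2 in Pb-ERG replicates 1 to 3. They summed to 10806 and 3728 for Trp53pcR172H/- and 94.0 to 706 in the double mutants. The double-mutant sums lay under both Trp53pcR172H/- sums and overlapped those of WT and Pb-ERG. Of the 7 genes, 1 was lower at 0.05 in the double mutants than in WT. Their part in the Hox changes was not tested.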

How the data were processed

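RNA of prostate tissue was sequenced in 11 libraries of 4 genotypes. The authors prepared libraries with an Illumina kit that keeps no strand, aligned reads with STAR (version 2.5.2b in the submitters' processing notes) to mm10 (GRCm38), and deposited FPKM per gene locus for each library. Totals of 14280978 to 51965100 fragments limit the precision of low genes, and counting intervals were not used. Because FPKM values step by whole fragments, fragments were recovered: 99.6% to 99.7% of the values at known lengths came out whole within 0.001.

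The main test was limma 3.58.1 in R 4.3.3 (moderated, with a mean trend) on log2(FPKM + 1), which understates changes of low genes, over 15583 genes with FPKM of 1 or more in 2 or more libraries. It fitted 4 group means with 7 residual degrees of freedom, and p-values were two-sided and adjusted by Benjamini-Hochberg over all these genes. Every adjusted p in the text is from limma. Calls were read at 0.001 and 0.05. Single genes were also compared with an exact two-sided permutation test, which cannot go below 0.1 for 3 against 3 libraries and 0.2 for 3 against 2. The script was tested on simulated data. Values per library were given for Hoxb13, for any Hox gene called at 0.001 and for the 3 most abundant genes of each cluster, and list genes were named where called; other genes were chosen after their values were seen. A few genes are counted in their lists and not reported here by name. The members and lists were chosen with earlier results of these data known. Promoter windows and motifs came from RefSeq sequences of GRCm38.p6. Alternatives were another pseudocount, no filter, 2 other scalings, the compared groups alone, a class by small non-coding RNA, the replicate number as a block, limma-voom on recovered fragments and each library left out in turn. For double-mutant against Pb-ERG libraries, replicates of the same number deviated together (r of 0.13, 0.25 and 0.33), so the blocked values are given there; the labels do not say what the number marks. For the other comparisons they did not in every pair, or there were fewer than 3 pairs. With 1 Trp53pcR172H/- library left out, the remaining library was assumed to vary like the other groups. Python 3.11.15 with scipy 1.17.1 was used for the rest.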

Additional observations from a re-analysis of the deposited data

Results flagged for a closer look

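Hoxd11 moved in opposite directions when the ERG transgene was added to normal and to altered Trp53. All 3 Pb-ERG libraries lay under the WT mean (change -0.20 on the scale of log2(FPKM + 1)), and all 3 double mutants lay over the Trp53pcR172H/- mean (change 0.58), a difference of 0.78. The Pb-ERG and WT libraries overlapped. The interaction had a limma adjusted p of 0.344, so the difference did not pass the threshold. It rests on 5 to 37 fragments per library, the gene passed the filter on low values through the double mutants alone, and the gene shares part of its span with another annotated locus.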

How the results depend on the processing

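From WT to the double mutants, Hoxb9 (log2 change -4.66 to -2.76), Hoxa10 (0.96 to 1.45) and Hoxa11 (1.93 to 2.49) kept direction and an adjusted p under 0.05 in all 21 settings, and Hoxb13 kept its direction in all 21. The number of Hox genes called at 0.001, 0 in the main test, was 1 with a pseudocount of 0.1 (Hoxb9), 2 with the compared groups alone, 2 without Pb-ERG replicates 2 and 3 (a setting chosen after seeing the data, like limma-voom with 10 fragments in 2 libraries), and 0 to 2 with each library left out, 2 arising without Pb-ERG replicate 1. The 6 calls at 0.05 became 3 with the class by small non-coding RNA and 3 to 6 with each library left out, 3 arising without each WT library. The Hoxb13 change was -1.01 without a filter (adjusted p = 0.0629), -1.02 with the class (0.131) and -1.21 to -0.86 with each library left out. For Pb-ERG against WT, 0 to 2 Hox genes were called with each library left out, and Hoxb13 changed sign without Pb-ERG replicate 2 (0.18, adjusted p = 0.809; range -0.40 to 0.18). For the double mutants against Pb-ERG, the 4 calls became 2 without a filter, 0 with these groups alone, 0 with the class and 1 to 4 with each library left out, while Hoxb13 became -1.04 (0.0267) with median-of-ratios and -1.05 (0.0235) with trimmed-mean scaling, and -1.19 to -0.61 with each library left out. Against Trp53pcR172H/-, Hoxb13 became -1.01 (0.0321) and -1.02 (0.0287) with these scalings, and with each library left out 0 to 2 Hox genes were called at 0.001 and 0 to 3 at 0.05. With median-of-ratios scaling the summed HoxB level of Trp53pcR172H/- was 155 and the summed HoxD level of WT was 10.9. The cause of these moves was not tested.

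With the replicate number as a block, the Hoxb13 change from WT to the double mutants was -1.01 (adjusted p = 0.0427) and 6 Hox genes were called at 0.05. In the pairing of Pb-ERG with the double mutants the block gave 3 calls, and against Trp53pcR172H/- it gave 2 (Hoxb9 and Hoxa11), where the numbers correlated at -0.02 and -0.35. No other call of a Hox gene changed under the block.

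The HoxC genes and Hoxd1 had too few fragments for a comparison, and the 2 Trp53pcR172H/- libraries leave wide intervals.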
